A study of Mus musculus with 4 samples.

Results

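Nr2f1, Nr2f2, Nr2f6, Nr2e1 and Nr6a1 are orphan nuclear receptors, transcription factors built like hormone receptors for which no hormone was known when they were named. Nr2f1 (COUP-TFI), Nr2f2 (COUP-TFII) and Nr2f6 (EAR2) form the COUP-TF family, Nr2e1 is Tlx, and Nr6a1 is the germ cell nuclear factor GCNF. They were taken by gene symbol from a table of gene expression in mouse retinal organoids, where each matched 1 row, giving 5 of 55426 genes. Such organoids are clumps of cultured stem cells that are steered towards the fate of retinal progenitors. Poly(A) RNA was sequenced at day 6 from 2 untreated and 2 Dox-treated samples. All 4 came from 1 line, Rx:GFP with a Mettl3 KO genotype and a Dox-inducible HA-METTL3, so the controls carry the knockout and the inducible copy too. METTL3 is the enzyme that writes N6-methyladenosine (m6A) on RNA, and doxycycline (Dox, 2 µg/ml for 6 days) is the agent that switches the tagged copy on. Both groups grew in medium that contained AGN, which the labels do not spell out, and sample titles read EV and EV+Dox with EV unexplained.

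COUP-TFs mostly repress their targets and bind DNA as dimers at repeats of a short hormone response element, with related members often able to use the same elements. In the developing eye and forebrain, Nr2f1 and Nr2f2 take part in setting regional identity, including that of the optic stalk and pigment epithelium against the neural retina. Tlx is a repressor that keeps neural stem cells and retinal progenitors dividing, and Nr6a1 is known for silencing pluripotency genes such as Pou5f1 as embryonic cells differentiate.

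The receptors' kinship can be read in the DNA-binding domain, where the P-box helix chooses the response element. The coding bases around it are shown because they separate the 3 COUP-TFs from Tlx and GCNF. Capitals mark the 18 bases of the P-box codons, taken from GENCODE M21 transcripts, and the lower-case bases are the flanks.
Nr2f1: ttcaccTGCGAGGGCTGCAAAAGTttcttc
Nr2f2: ttcacgTGCGAGGGCTGCAAGAGCttcttc
Nr2f6: ttcaccTGCGAGGGCTGCAAGAGTttcttc
Nr6a1: atctccTGCGAGGGCTGCAAGGGGtttttc
Nr2e1: tacgctTGCGACGGCTGCTCCGGAttcttc
Against Nr2f1, the capital stretch differed at 1 base in Nr2f6, 2 in Nr2f2, 3 in Nr6a1 and 6 in Nr2e1. These are base counts, and the differences among the 3 COUP-TFs leave the encoded residues unchanged. Part of each stretch was also fixed by the search pattern. Across the aligned coding sequence, Nr2f1 and Nr2f2 were identical at 83.5% of bases, Nr2f1 and Nr2f6 at 74.9%, and Nr2f2 and Nr2f6 at 71.8%. Pairs that included Nr2e1 or Nr6a1 were identical at 60.0 to 63.9%. The longest exact stretch shared by the Nr2f1 and Nr2f2 transcripts was 59 bases, shorter than the 150-base reads the labels give, and no other pair shared more than 23.

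Values are FPKM, fragments scaled to transcript length and library depth, so levels can be compared roughly between genes. For Nr2f6 the comparison is limited further, because 54.4% of its exon length overlaps another gene, as given below. The low values fitted a depth of 32000000 to 34600000 fragments per library, and every member rested on an estimated 1814.3 fragments or more in each library, a counting error of at most 2.35%. Nothing in the labels says whether the duplicates came from separate cultures, and the p-values measure only the spread between these samples. Mettl3 itself had 40.33 and 37.98 FPKM without Dox and 45.2 and 46.37 with it (adjusted p = 0.122, limma), so its RNA level does not check the labels, and the row does not tell the edited gene from the inducible copy. By the markers of the labelled tissue, 10 of 10 retinal progenitor genes rose with Dox, where 4.44% of all tested genes did. The list was written with earlier results of these data known. It leaves out Pax6, an eye-field factor at 127.76 and 118.86 FPKM without Dox and 122.8 and 130.69 with it (limma adjusted p = 0.796). The summed level of the listed genes was 47.8 to 52.7 FPKM without Dox and 1001.7 to 1195.9 FPKM with it. Single markers without Dox ran from 0.01 FPKM in both libraries (Six6) to 26.72 and 24.3 FPKM (Lhx2). The untreated libraries thus held less of these listed markers than the Dox libraries, but not all were near 0. Summed markers of other forebrain regions, neurons and neural crest were at their higher level without Dox.

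Of the 5 receptors, Nr2f2 and Nr2e1 fell with Dox and the other 3 did not pass the test. The count of 2 called members stands against 9.31% of the 13931 tested genes called in either direction, with 4.87% called lower and 4.44% higher. Called means an adjusted p under 0.05 from limma with Benjamini-Hochberg adjustment over all tested genes, and fold changes are differences of log2(FPKM + 1). All 5 had untreated and Dox values that did not overlap, as did 53.4% of all tested genes (26.9% with the Dox pair lower, as in 4 members, and 26.5% with it higher, as in Nr2f6).

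**Figure D1:**
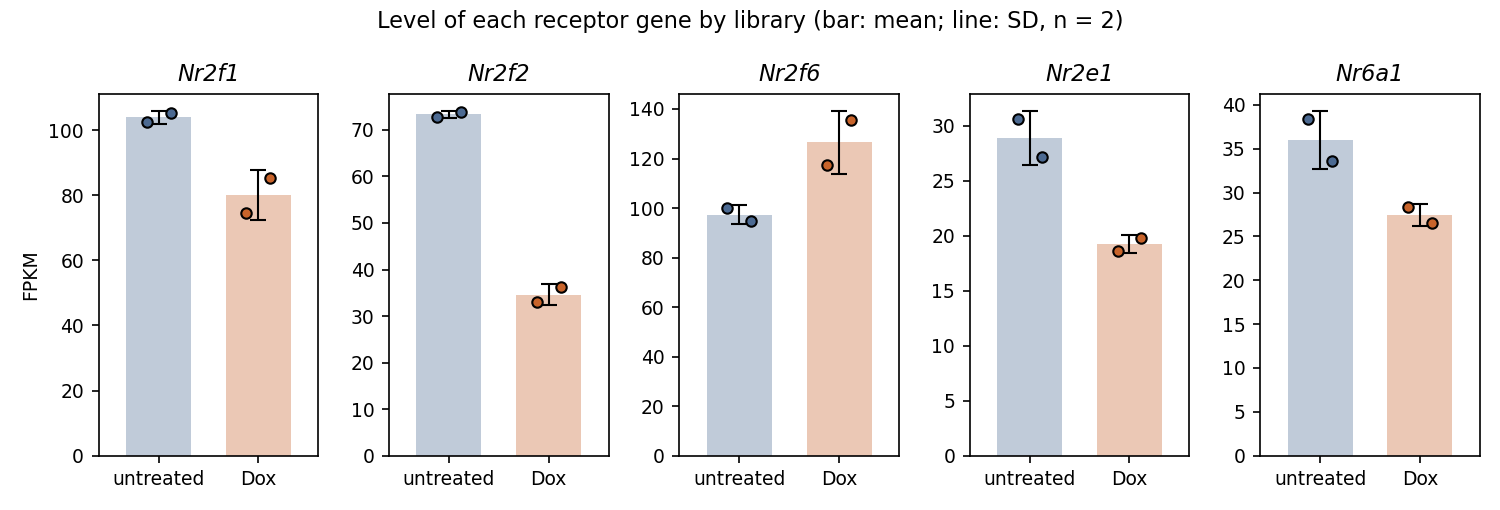
FPKM of each receptor (vertical axis, starting at 0 and scaled for each gene) in the 2 untreated and 2 Dox libraries (points), with the group mean as a bar and its SD as a line. Nr2f2 shows the widest gap between groups, from 72.88 and 73.91 FPKM to 33.01 and 36.25, and Nr2f6 is the receptor with its higher values under Dox.

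Nr2f2, a COUP-TF that patterns the dorsal optic vesicle and ventral forebrain and also many mesodermal organs, had 72.88 and 73.91 FPKM in the untreated pair and 33.01 and 36.25 FPKM in the Dox pair. Both Dox libraries lay far below both untreated ones, and the gap was many times the difference within either group. The mean fell from 73.4 ± 0.728 to 34.6 ± 2.29 FPKM (SD, n = 2 per group), a level 0.472 times that of the untreated group. On the log2 scale it fell by 1.06 (SE 0.0732, 95% interval -1.25 to -0.88, limma adjusted p = 0.000901). A larger absolute fold change was found in 3.73% of the tested genes. In bulk RNA, fewer cells that hold a transcript and less of it per cell cannot be told apart.

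Nr2f1, the COUP-TF closest to Nr2f2 in sequence and a regulator of cortical area identity and optic nerve development, stood at 102.39 and 105.32 FPKM without Dox and at 74.57 and 85.37 FPKM with Dox. The untreated libraries were close together and above both Dox libraries, which differed more from each other. Group means were 103.9 ± 2.07 and 80.0 ± 7.64 FPKM (SD, n = 2 per group), with a log2 difference of -0.38 (SE 0.0845, 95% interval -0.59 to -0.16). This did not pass the test (limma adjusted p = 0.055). It passed with robust variance shrinkage (0.0402) and with median centring (0.0468).

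Nr2f6, the least studied of the COUP-TFs and known for work in lymphocytes and in brainstem noradrenergic neurons, was at 100.04 and 94.61 FPKM in untreated organoids and at 117.46 and 135.54 FPKM with Dox. It was the only member with both Dox libraries above both untreated ones. The means were 97.3 ± 3.84 and 126.5 ± 12.8 FPKM (SD, n = 2 per group), and the log2 difference of 0.37 (SE 0.0896, 95% interval 0.15 to 0.60) did not pass the test (limma adjusted p = 0.0669).

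The make-up of the COUP-TF family can be read from the share of each gene in the family's summed FPKM. The 3 genes together reached 275.3 and 273.8 FPKM without Dox and 225.0 and 257.2 with Dox. Nr2f2 supplied 26.5% and 27.0% of that sum in the untreated libraries and 14.7% and 14.1% in the Dox libraries. The share of Nr2f6 was 36.3% and 34.5% without Dox against 52.2% and 52.7% with it, and Nr2f1 held 37.2% and 38.5% against 33.1% and 33.2%. Within each group the shares of the duplicates lay close together, and none of the 3 overlapped between groups. The FPKM values of 53.4% of all tested genes did not overlap either. The shares in a library are parts of one sum, so a fall in one raises the others. The ratio of Nr2f1 to Nr2f2 was 1.4 and 1.42 in the untreated libraries and 2.26 and 2.36 in the Dox libraries. Its log2 difference of 0.69 had an exact two-sided permutation p of 0.333, the smallest that 2 samples against 2 can give.

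**Figure D2:**
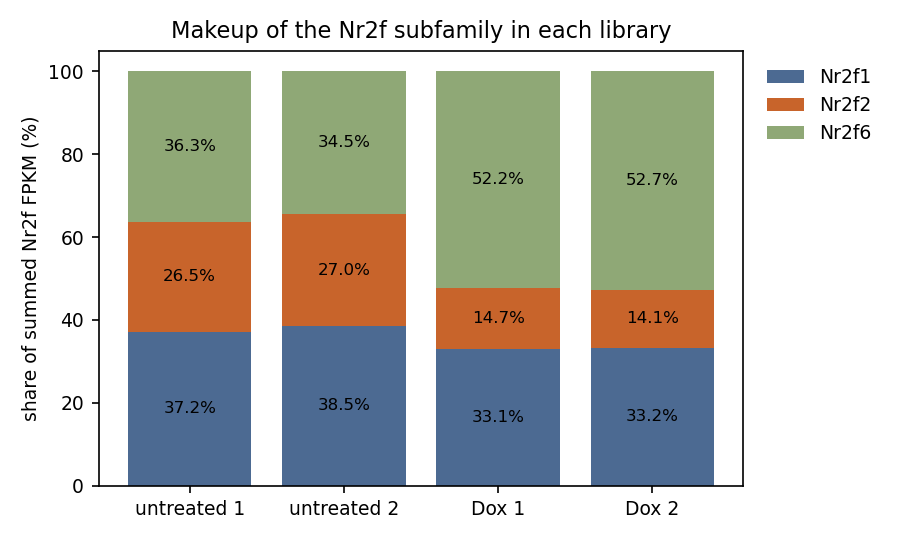
Share of the summed COUP-TF FPKM (percent, vertical axis) held by Nr2f1, Nr2f2 and Nr2f6 in each of the 4 libraries. The Nr2f2 segment covers 26.5% and 27.0% in the untreated libraries and 14.7% and 14.1% in the Dox libraries, and the Nr2f6 segment covers 36.3% and 34.5% against 52.2% and 52.7%.

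Nr2e1, Tlx, had 30.64 and 27.17 FPKM without Dox and 18.65 and 19.83 FPKM with it. The 2 Dox values were below both untreated values and nearer to each other. The mean fell from 28.9 ± 2.45 to 19.2 ± 0.834 FPKM (SD, n = 2 per group), 0.666 times the untreated level, which is -0.56 on the log2 scale (SE 0.0882, 95% interval -0.78 to -0.34, limma adjusted p = 0.0169). The call was lost when any 1 of the 4 libraries was left out, with adjusted p from 0.0509 to 0.116 and differences from -0.65 to -0.48. It was also lost without the filter on low genes (adjusted p = 0.0801) and on TPM values (0.0501).

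Nr6a1, the germ cell nuclear factor, was listed at 38.36 and 33.63 FPKM without Dox and at 28.36 and 26.57 FPKM with Dox. Its Dox values were the lower pair, with means of 36.0 ± 3.34 and 27.5 ± 1.27 FPKM (SD, n = 2 per group). The log2 difference of -0.38 (SE 0.0895, 95% interval -0.60 to -0.15) did not pass the test (limma adjusted p = 0.065). With robust variance shrinkage it did (0.0494).

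**Figure D3:**
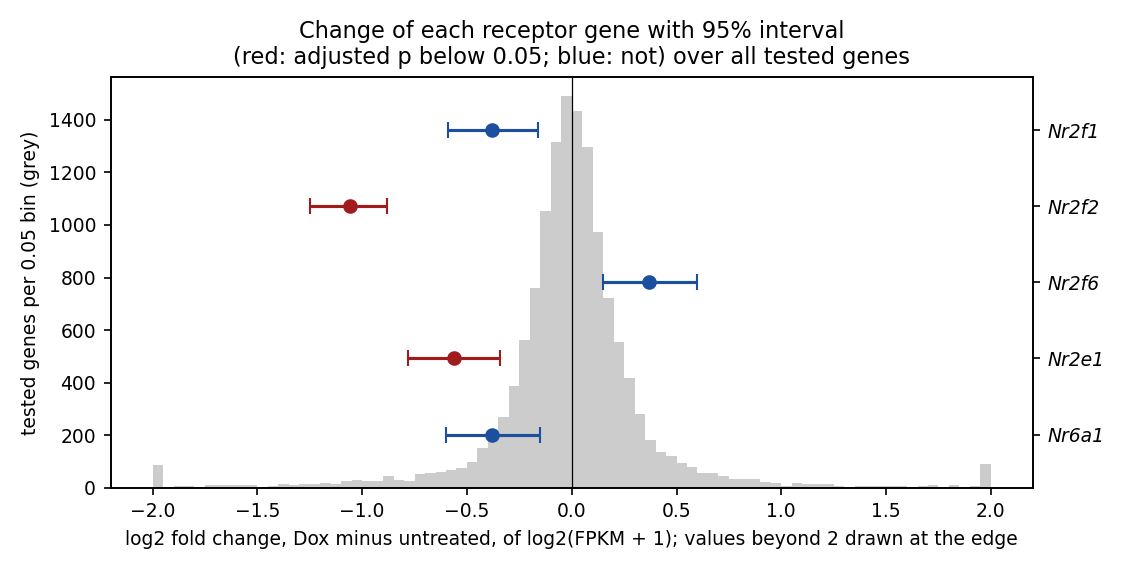
Log2 fold change, Dox against untreated, on the log2(FPKM + 1) scale (horizontal axis) for each receptor as a point with its 95% interval from limma, red where the test was passed, over a grey histogram of all 13931 tested genes (left axis, genes per bin). Nr2f2 lies at -1.06 and Nr2e1 at -0.56, both in red, while Nr2f6 at 0.37 is on the other side of 0.

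The order of FPKM levels among the 5 was Nr2f1, Nr2f6, Nr2f2, Nr6a1 and Nr2e1 without Dox, and Nr2f6, Nr2f1, Nr2f2, Nr6a1 and Nr2e1 with Dox. Neighbours in either order did not overlap between their duplicates. The closest were Nr2f1 and Nr2f6 without Dox, whose means differed by a ratio of 1.07, and the widest step was from Nr2f1 to Nr2f2 with Dox, a ratio of 2.31. Without Dox the widest step was from Nr2f2 to Nr6a1, a ratio of 2.04.

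Among 49 nuclear receptor genes, 25 passed the filter on low values, and the 5 orphan receptors took 64.3% and 66.2% of the summed receptor FPKM in the untreated libraries and 60.8% and 61.9% in the Dox libraries. Nr2f6, Nr2f1 and Nr2f2 held the first 3 places by mean level, Nr6a1 place 5 and Nr2e1 place 8. Rxrb, a shared partner of many receptors and place 4 in that order, was at 40.89 and 35.98 FPKM against 33.54 and 35.31 (limma adjusted p = 0.359). Of the 20 other tested receptors, 1 rose and 1 fell, a share near the 9.31% of all tested genes that were called. Their median log2 difference was 0.00. Thra, the main thyroid hormone receptor of early brain, fell from 35.97 and 31.25 to 22.99 and 22.58 FPKM (log2 -0.54, limma adjusted p = 0.0202). Thrb, the thyroid hormone receptor that later sets cone photoreceptor opsins, rose from 0.45 and 0.26 to 2.96 and 3.64 FPKM (log2 1.67, limma adjusted p = 0.00259). The call of Thra was lost without the filter on low genes (adjusted p = 0.0911) and with any library but untreated replicate 2 left out (0.113 to 0.136). Nr2e3, the photoreceptor relative of Tlx, was listed at 0 in all 4 libraries.

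**Figure D4:**
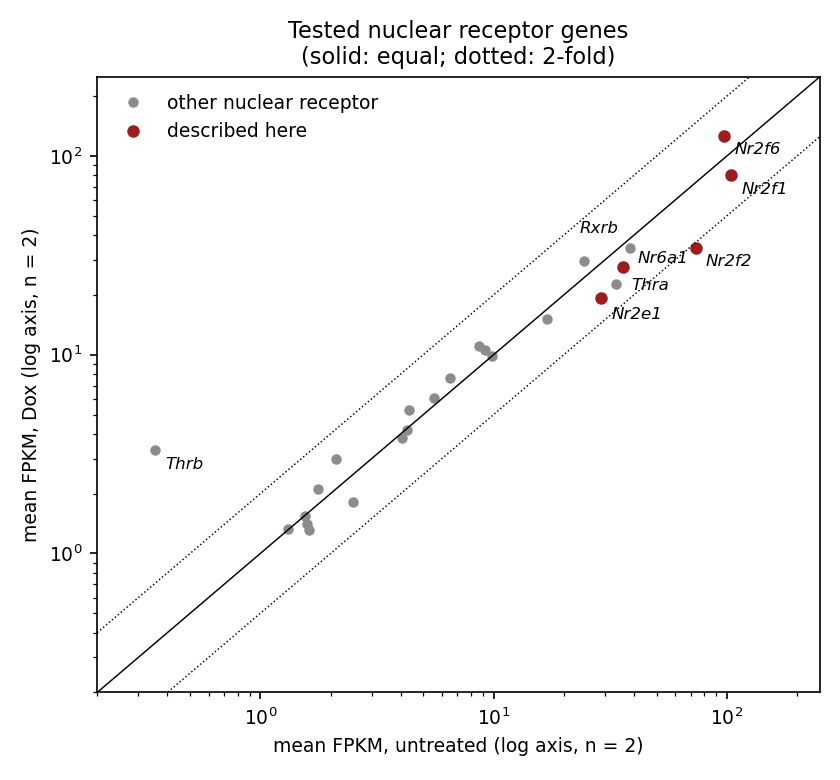
Mean FPKM with Dox against mean FPKM without Dox for the 25 tested nuclear receptor genes, on log axes, with lines for equal levels and for 2-fold differences. Nr2f2 lies at the lower 2-fold line with means of 73.4 and 34.6 FPKM, and Thrb, at 0.355 and 3.3 FPKM, lies beyond the upper one.

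Of 24 genes for corepressors and coactivators, proteins that nuclear receptors work with, 21 were tested, 1 rose and none fell by limma (3 at an unadjusted p under 0.05), where 9.31% of all tested genes were called. Their median log2 difference was 0.05 against -0.0042 for all tested genes. Zfpm1, a FOG zinc-finger cofactor of GATA factors and relative of the COUP-TF partner Zfpm2, rose from 3.68 and 2.92 to 10.47 and 12.58 FPKM (log2 1.54, limma adjusted p = 0.00244). Trim28, a corepressor that recruits histone-modifying enzymes and the most abundant of the list, was at 263.83 and 243.36 FPKM without Dox and 270.06 and 299.27 with Dox (adjusted p = 0.324). Hdac2, a histone deacetylase of several corepressor complexes, was at 120.73 and 126.43 against 143.06 and 139.71 FPKM (adjusted p = 0.148).

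Genes linked to COUP-TFs in the eye and forebrain went both ways: 9 of 10 were tested, 2 rose and 3 fell, with a median of -0.27. Of all tested genes, 9.31% were called. Emx2, a patterning factor of the dorsal forebrain, fell from 78.18 and 75.76 to 11.01 and 6.26 FPKM (log2 -3.06, limma adjusted p = 0.00116). Nrp2, a semaphorin co-receptor, fell from 2.56 and 2.38 to 1.0 and 1.19 FPKM (log2 -0.73, adjusted p = 0.0254). Otx2, needed for forebrain and retinal pigment epithelium, fell from 173.12 and 172.52 to 137.05 and 131.35 FPKM (log2 -0.36, adjusted p = 0.0254). Those that rose were a signal and a nuclear cofactor. Fgf8, a growth factor of the anterior forebrain and optic stalk, rose from 3.16 and 2.99 to 6.06 and 5.92 FPKM (log2 0.78, limma adjusted p = 0.00904). Lmo4, a LIM-only cofactor of cortical patterning, rose from 36.58 and 37.32 to 53.78 and 57.55 FPKM (log2 0.58, adjusted p = 0.00623). Pax6, the eye-field and cortical factor, was at 127.76 and 118.86 against 122.8 and 130.69 FPKM (adjusted p = 0.796). Without the filter on low genes 1 of the list rose and 1 fell, Fgf8 (0.0578), Nrp2 (0.092) and Otx2 (0.0616) being lost, and Otx2 also without an intensity trend (0.0579). Fgf8, Nrp2 and Otx2 lost the call with each of the 4 libraries left out (adjusted p from 0.0566 to 0.195), and Lmo4 with any but Dox replicate 1 left out (0.0549 to 0.0633).

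Of the 10 genes linked to Tlx, 7 were tested, 1 rose and 3 fell, where 9.31% of all tested genes were called. Their median was -0.03. Wnt7a, a ligand that promotes stem cell division, fell from 3.79 and 3.89 to 0.67 and 0.55 FPKM (log2 -1.59, limma adjusted p = 0.00139). Cdkn1a, a brake on the cell cycle that Tlx is known to repress, fell from 56.0 and 49.0 to 26.86 and 27.78 FPKM (log2 -0.91, adjusted p = 0.00269). Nr2e1 was lower in the same libraries, and whether it bears on Cdkn1a was not tested. Plce1, a phospholipase listed among Tlx targets in retina, rose from 1.28 and 1.17 to 3.42 and 4.17 FPKM (log2 1.10, adjusted p = 0.00693). The rise of Plce1 was not called without the filter on low genes (0.0617) or with Dox replicate 2 left out (0.0542).

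None of the 3 tested genes linked to Nr6a1 was called by limma, where 9.31% of all tested genes were. Of the 3, 1 had an unadjusted p under 0.05, and their median was -0.01. Pou5f1, the pluripotency factor that Nr6a1 silences, was at 10.84 and 9.24 FPKM without Dox and at 12.08 and 8.14 with Dox (limma adjusted p = 0.98). Nanog, a second pluripotency factor, was at 3.77 and 3.79 against 3.07 and 2.23 FPKM (adjusted p = 0.18, unadjusted p = 0.0383). Prm1 and Prm2, the sperm protamines, were listed at 0 in all 4 libraries.

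Retinoid genes were included because COUP-TFs are known to compete with retinoid receptors for response elements. Of 12 genes, 6 were tested, 5 rose and 1 fell, where 9.31% of all tested genes were called. Their median was 1.10. Crabp1, which binds retinoic acid in the cell, rose from 65.2 and 71.65 to 323.97 and 339.46 FPKM (log2 2.26, limma adjusted p = 0.000104). Aldh1a1, which makes retinoic acid in the dorsal retina, rose from 0.15 and 0.22 to 2.12 and 2.3 FPKM (log2 1.44, adjusted p = 0.00276). Stra6, the retinol uptake receptor, rose from 5.21 and 4.18 to 8.21 and 8.98 FPKM (log2 0.76, adjusted p = 0.0207). Crabp2, which hands retinoic acid to its receptors, fell from 1096.6 and 1120.56 to 770.12 and 679.88 FPKM (log2 -0.61, adjusted p = 0.0188). Rdh10, a retinol dehydrogenase named after its values were seen, rose from 2.48 and 2.64 to 4.47 and 5.11 FPKM (log2 0.70, adjusted p = 0.021). Without the filter 3 of the retinoid genes rose and none fell by limma, Stra6 (0.107), Rdh10 (0.102) and Crabp2 (0.095) being lost. With 1 library left out 3 or 4 rose, Rdh10 being lost with each (adjusted p from 0.0709 to 0.119). Stra6 also lost the call with any library but untreated replicate 1 left out (adjusted p from 0.102 to 0.146), and Crabp2 with any but Dox replicate 1 (0.0871 to 0.198).

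Markers of other cell types moved with the same contrast, and their part in the fall of Nr2f2 and Nr2e1 was not tested. Of all tested genes, 4.87% were called lower and 4.44% higher. Of 10 markers of other forebrain regions, 9 fell and 1 rose (median -3.28), and their summed level was 364.8 to 367.4 FPKM without Dox and 35.4 to 36.9 with Dox. All 8 tested neuron markers fell (median -1.70), with sums of 177.1 to 182.8 against 89.1 to 93.4 FPKM. Neural crest markers fell in 6 of 7 cases (median -1.06), with sums of 41.6 to 42.7 against 10.8 to 11.6 FPKM, and Sox10, which defines that lineage, fell from 12.79 and 13.35 to 0.82 and 0.43 FPKM. Mesenchyme is a tissue where Nr2f2 is known to be abundant. Its markers were mixed, with 3 of the 6 tested higher and 3 lower in value (median 0.16). Their sums were 21.3 to 23.1 FPKM without Dox and 66.4 to 69.0 with Dox, but 11.5 to 13.3 against 11.4 to 14.1 FPKM without Prrx2, which was singled out after its values were seen. The 2 that rose were Prrx2 and Pdgfra, the latter not without the filter (adjusted p = 0.0707) or with any library but untreated replicate 2 left out (0.0688 to 0.0835). Of the endothelial list only Kdr passed the filter, and it rose from 0.22 and 0.25 to 13.91 and 17.63 FPKM. The list sums were 1.03 to 1.1 against 15.4 to 19.7 FPKM, and Kdr made up most of the sums with Dox. Every other gene of that list was under 1 FPKM in each library. No endoderm marker passed the filter (sums 0.66 to 0.88 against 1.4 to 1.87 FPKM). Pluripotency markers gave no limma call among 7 tested (2 at an unadjusted p under 0.05), with sums of 73.2 to 77.7 against 54.4 to 78.3 FPKM. No marker of the 8 lists was at 0 in all 4 libraries.

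All 5 receptor genes lie on the minus strand of GRCm38 in GENCODE M21. Nr2f1 is at chr13:78188973-78199757, Nr2f2 at chr7:70351944-70366735, Nr2f6 at chr8:71374123-71381960, Nr2e1 at chr10:42561963-42583632 and Nr6a1 at chr2:38723370-38927688. Exons of Nr2f6 overlap those of Ocel1 on the other strand over 54.4% of their length, those of Nr2f2 overlap B130024G19Rik over 7.5%, and those of Nr2f1 overlap A830082K12Rik over 2.4%. Whether counting used strand is not given in the sources used here, so reads from an overlap cannot be assigned. Ocel1 was at 3.77 and 4.5 against 5.04 and 5.64 FPKM, far under the level of Nr2f6. B130024G19Rik, next to the Nr2f2 start, was at 2.17 and 1.47 FPKM without Dox and 0.55 and 0.89 with Dox, a difference that did not pass the test (limma adjusted p = 0.0861).

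Beside the overlapping genes, 40 genes within 500 kb of the 5 receptors were tested, of which 1 rose and 1 fell, where 9.31% of all tested genes were called in either direction. Apart from B130024G19Rik, no tested gene lay that close to Nr2f2. Ostm1, a lysosomal membrane protein gene 190 bases from Nr2e1 on the other strand, was at 13.41 and 13.42 FPKM without Dox and 12.76 and 13.57 with Dox (limma adjusted p = 0.881). Sobp, 418.9 kb from Nr2e1, fell from 3.59 and 2.96 to 0.81 and 1.26 FPKM (log2 -1.08, adjusted p = 0.0157, 0.0998 without the filter, 0.0779 without untreated replicate 1 and 0.0796 without Dox replicate 1), and Lhx2, a retinal progenitor factor 353.6 kb from Nr6a1, rose (log2 3.50). These neighbours were named after their values were seen.

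Since METTL3 is the m6A writer, the transcripts were searched on their own strand for GGACT, a frequent form of the m6A consensus. The match nearest the stop codon, where m6A is known to be dense, is shown for each with 10 bases on either side and the match in capitals. These are matches in GENCODE M21 transcripts, and no m6A was measured.
Nr2f1: gagactaagaGGACTctccctgacc
Nr2f2: agaatttaatGGACTgtgaatttca
Nr2f6: ggttgcaggtGGACTgcgtggtgtg
Nr2e1: aaatgccaacGGACTcaaaacaaca
Nr6a1: agggtaggatGGACTagatgagtat
The match was in the 3′ UTR, 53 bases past the stop codon in Nr2f1, 134 in Nr2f2, 137 in Nr2e1 and 333 in Nr6a1. In Nr2f6 it lay in the coding sequence, 1008 bases before the stop codon. Per kb of transcript, GGACT matched 0.3 times in Nr2e1, 0.47 in Nr2f2, 0.95 in Nr6a1, 1.25 in Nr2f1 and 1.8 in Nr2f6, against a median of 1.05 over 11613 tested genes with a coding transcript. The broader consensus known as DRACH gave another order, with 14.3 matches per kb in Nr2f1, 14.9 in Nr2f6, 17.3 in Nr2f2, 19.6 in Nr6a1 and 21.3 in Nr2e1, against a median of 20.0. Per kb, Nr2e1 thus had the fewest GGACT and the most DRACH matches of the 5.

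RefSeq promoters (GRCm38.p6, from 250 bases before to 50 after each start) matched all 5 genes in 7 windows. They were searched on both strands for AGGTCA, the hormone response element core that COUP-TFs and GCNF bind, which 16.3% of 32851 promoters hold, and for AAGTCA, the core known for Tlx, held by 15.1%. The 2 motifs do not overlap in the windows shown. AGGTCA was found in 1 Nr6a1 window only, as 2 reverse complements at positions -91 and -45, and AAGTCA in the Nr2e1 window at position 8. The matches, in capitals on the gene's strand, were as follows.
Nr6a1, chr2:38784589-38784618, minus strand: ccatgcacactgTGACCTtagagcctgaac
Nr6a1, chr2:38784543-38784572, minus strand: cggcttgtaaacTGACCTgtgaggatgacg
Nr2e1, chr10:42583566-42583595, minus strand: gcgacaggcacaAAGTCAcagggtaatgaa
Each match is a description of these letters, and binding was not measured. Each motif was in 1 of the 7 windows, a share near that of all promoters. The other Nr6a1 window and those of Nr2f1, Nr2f2 and Nr2f6 hold neither.

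The genes whose pattern over the 4 libraries was most like each receptor were named by the Euclidean distance of centred log2(FPKM + 1) values. For Nr2f2 they were Irs1 (distance 0.026), an insulin receptor substrate, Prokr1 (0.059), a prokineticin receptor, and Fzd4 (0.066), a Wnt and norrin receptor, and 11 genes lay within 0.1. For Nr2f1 they were Arhgap21, Dna2 and Btbd6, with 86 within 0.1, and for Nr2f6 they were Lix1l, Capn3 and Ss18l1, with 139. For Nr2e1 they were Lrrn2 (0.006), Ak1 (0.023) and Tanc2 (0.024), with 28 genes within 0.1, and for Nr6a1 they were Cystm1 (0.014), Aen (0.021) and Pak1 (0.038), with 49. Nr2f2 had the fewest close neighbours of the 5, and also the largest absolute fold change. The scale understates changes of low genes, such as Prokr1 at 3.4 and 3.43 FPKM without Dox and 1.12 and 1.23 with it. The distances rest on 4 libraries in 2 groups and are a description only.

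The direction of all 5 differences was the same in all 14 other settings. Nr2f2 passed the test in 10 of 10 settings with all libraries and in 4 of 4 with 1 library left out, its log2 difference ranging from -1.13 to -0.99. Nr2e1 passed in 8 of 10 and in 0 of 4, Nr2f1 in 2 of 10 and 0 of 4, Nr6a1 in 1 of 10 and 0 of 4, and Nr2f6 in none of the 14.

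**Figure D5:**
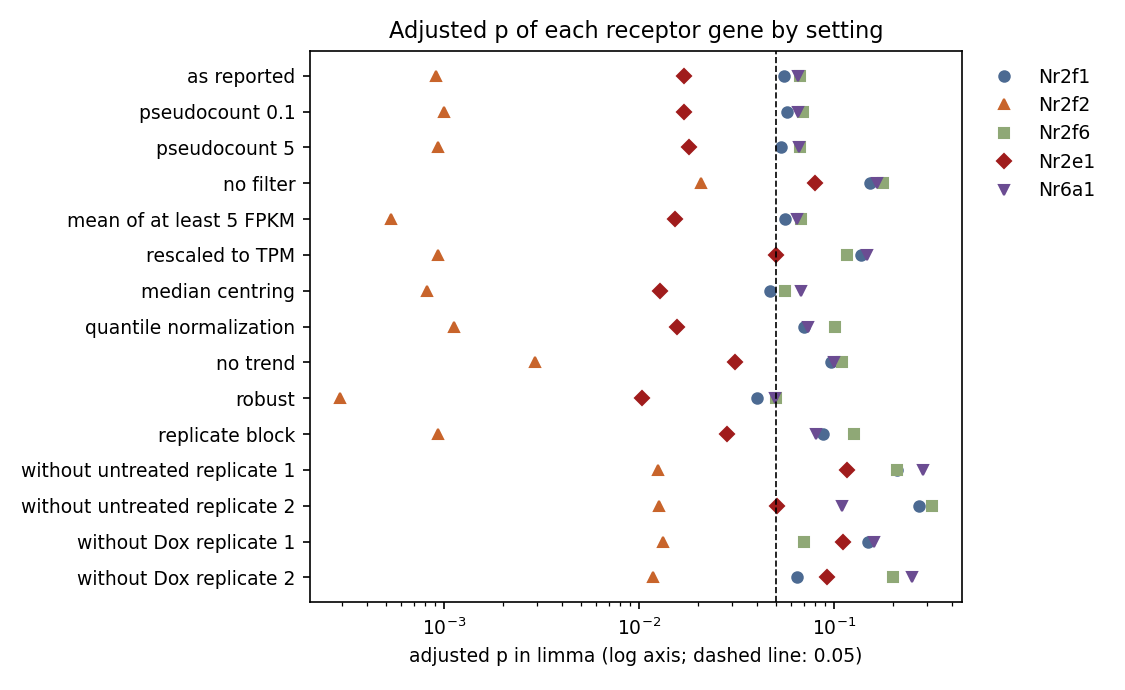
Adjusted p of each receptor from limma (horizontal log axis, dashed line at 0.05) under the reported setting and the 14 alternatives (vertical axis), with a marker shape for each gene. The Nr2f2 triangles lie left of the line throughout, from 0.00029 to 0.0208, while the Nr2e1 diamonds lie right of it in the 4 settings that leave out a library, from 0.0509 to 0.116.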

How the data were processed

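Poly(A) RNA of 2 untreated and 2 Dox organoid samples was measured. The authors deposited FPKM values, 1 column per library, and the submitters' processing notes name STAR, Cuffdiff and mm10 without roles. Annotation release and strand setting are not given in the sources used here. Columns were matched to samples by title, with 0 columns unmatched, and groups came from the treatment label. Depth was fitted from low FPKM values of genes of 450 to 1200 bases, but too few came out whole for a count model. Values were taken as log2(FPKM + 1). The 13931 genes averaging 1 FPKM or more were tested in limma 3.58.1 (R 4.3.3) with an intensity trend, no covariate and Benjamini-Hochberg adjustment at 0.05, 2-sided, a procedure also tested on simulated data. Fold changes on this scale understate changes of low genes. The members and lists were chosen with earlier results of these data known. Named from each list were up to 4 called genes with the largest change and the 2 highest by mean, and for likeness the 3 nearest genes by distance. Some genes this rule picked are not reported here but stay in the counts. Transcripts and positions came from GENCODE M21 (GRCm38), promoters from RefSeq (GRCm38.p6). P-boxes were found in frame as a TGC or TGT codon followed by codons that start with GA, GG and TG. Alternatives covered pseudocount, filter, scaling, variance model, replicate block and leaving out each library.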

Additional observations from a re-analysis of the deposited data

How the results depend on the processing

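Against 619 genes called higher and 678 lower, 336 and 409 were called without the filter and 408 and 413 with a filter of 5 FPKM, of which 566 and 818 were among those reported. Leaving out 1 library gave 262 to 320 higher and 331 to 377 lower, the lone sample being assumed to vary like the others. Nr2e1 was not called without the filter (-0.56) or on TPM (-0.54), nor with 1 library left out (-0.65 to -0.48). Nr2f1 was called with median centring (-0.38) and robust shrinkage (-0.38), and Nr6a1 with robust shrinkage (-0.38). The causes were not tested. A replicate block called 532 genes higher and 602 lower, and changed no call of the 5 receptors (Nr2f2 adjusted p = 0.000927, Nr2e1 0.0281 in limma). Same-numbered libraries deviated with a correlation of -0.043, and nothing shows that the numbers pair them. The block ended the calls of Otx2 (adjusted p = 0.105) and Crabp2 (0.0833).

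Of 69 other genes picked by the naming rule or singled out, 46 were called, and 14 of these lost the call in some setting with all libraries and 16 with 1 library left out, none changing sign. Left-out libraries turned signs near 0. Pax6 ranged from -0.0121 to 0.0912 (turned by leaving out untreated replicate 2 or, at -0.00501, Dox replicate 2), and Pou5f1 from -0.269 to 0.248 (0.0946 without untreated replicate 1). Dppa5a reached 0.0762 without Dox replicate 2, from -0.478 without Dox replicate 1, and Ostm1 ranged from -0.0671 to 0.0154. On TPM, Pou5f1 was at 0.00913. With 2 samples a group, Nr2f1, Nr6a1 and Nr2f6 had adjusted p of 0.055 to 0.0669 in limma. These values were above the threshold of 0.05, and none of these genes was called in the reported setting.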
